A study of Bos taurus with 15 samples.

Results

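The genes of mitochondrial and peroxisomal fatty acid oxidation were followed in subcutaneous adipose tissue of primiparous Prim Holstein dairy cows around calving. The list held 40 gene symbols, and a gene was kept when its symbol was found in all 6 deposited comparison tables. This left 38 of the 13896 genes of these tables, with *CPT1C* and *ACOT1* absent. The study took total RNA, depleted of ribosomal RNA, from 15 biopsies in 5 groups of 3. The first group was sampled one month before calving, before the diets began, and carries no diet label. Cows then received LE (low energy diet) or HE (high energy diet) from that month on, and both diets were sampled at 1 and 16 weeks peripartum (wkpp). By its methods the study took the cows with the most extreme energy balances at 1 wkpp for sequencing and compared severe (SNEB) with moderate (MNEB) negative energy balance. The labels give the diet, by which the groups are named here. The study's own sample list gives the energy state, SNEB for the sample numbers and weeks of the LE samples and MNEB for those of the HE samples. Diet and energy balance therefore cannot be told apart. By the study's methods each animal was biopsied at every time, so groups of different times can share cows. Libraries are named a, b and c by decreasing depth within a group, because the cow behind a library is not known.

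Fatty acid oxidation starts when a fatty acid, joined to coenzyme A, is handed to carnitine and carried into the mitochondrion. Acyl-CoA dehydrogenases, hydratases, hydroxyacyl-CoA dehydrogenases and thiolases then remove acetyl-CoA in repeated rounds, and the electrons pass through the electron transferring flavoprotein to the respiratory chain. Peroxisomes shorten very long and branched chains by a related route. White adipose tissue stores fatty acids and releases them in early lactation, when the energy in milk exceeds the energy eaten, and it oxidises some of them itself.

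The HE libraries stood apart from the others in the reads counted on genes and in spike-in content. By the study's sample list the numbers of sequenced reads were alike, while a smaller share of the reads of the HE samples mapped uniquely. The 9 libraries of the before calving and LE groups held 8076601 to 14772310 exonic reads on genes, while the 6 HE libraries held 2028309 to 7518057. Spike-in RNA, which is added in a set amount during preparation, made up 0.344% to 2.62% of the exonic reads in the 9 libraries and 9.65% to 29.7% in the 6 HE libraries. These shares rest on 87 of the 92 spike-ins and on the genes with recovered counts. Every difference between an HE group and another group therefore runs along this difference in the libraries, and the 2 cannot be told apart. The comparisons within LE, within HE, and of before calving with LE do not cross this divide, but the spike-in share also separated the times within a diet. It was 15.1% to 29.7% in HE at 1 wkpp against 9.65% to 14.5% at 16 wkpp, and 1.42% to 2.23% in LE at 1 wkpp against 0.344% to 1.31% at 16 wkpp. The part of this in the differences was not tested.

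**Figure D1:**
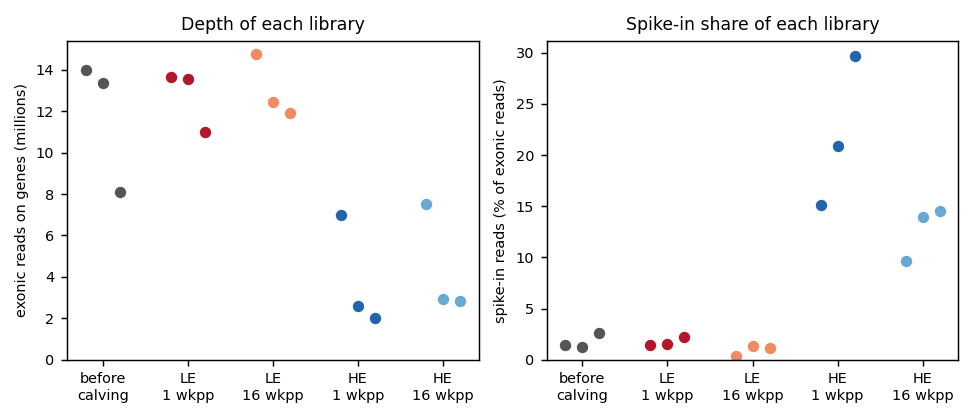
Each dot is 1 library, in 5 groups of 3; the left panel gives exonic reads on genes and the right panel the spike-in reads as a percent of exonic reads. The 6 HE libraries hold at most 7518057 reads and at least 9.65% spike-in reads, and the 9 others at least 8076601 and at most 2.62%.

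Markers of the cell types were read beside the list. All 8 adipocyte markers with counts were detected in every group, and *ADIPOQ* and *PLIN4* were not in the tables. The normalised counts of these 8 markers summed to 77304 to 84777 before calving, 93116 to 123010 in LE at 1 wkpp and 65881 to 72717 in LE at 16 wkpp. In the HE groups the sums spread from 23059 to 90661 at 1 wkpp and from 15045 to 63197 at 16 wkpp, so the adipocyte signal varied most between the HE libraries. The 12 skeletal muscle markers summed to 113 to 376 in the 9 other libraries, to 1191 to 4165 in HE at 1 wkpp and to 1715 to 3810 in HE at 16 wkpp. Almost all of this came from *TNNT3*, a fast troponin T, at 1170 to 3941 in the HE libraries. Other muscle genes were low but not evenly so. The myosin heavy chains *MYH1*, *MYH2* and *MYH7* had 48.6, 16.2 and 27.0 in HE library b and 51.5, 36.8 and 51.5 in HE library c at 1 wkpp, against at most 1.0 in HE library a, and *ACTA1*, the skeletal actin, had 94.6 in library b. Libraries b and c held 2590951 and 2028309 exonic reads on genes, so these values rest on few reads. In LE at 1 wkpp *MYH1* was at 0, *MYH2* at most 0.5, *MYH7* at most 16.2 and *ACTA1* at most 2.2. Before calving library c had 16.8, 12.1 and 22.4 of *MYH1*, *MYH2* and *MYH7*. *ACTA1* had 15.0 in before calving library a and 31.3 in HE library a at 16 wkpp. *CKM*, the muscle creatine kinase, was at most 4.9 in every library. The 6 macrophage markers summed to 5301 to 7398 before calving, 8123 to 13090 in LE and 2164 to 8100 in HE at 1 wkpp, and 10917 to 14300 in LE and 2087 to 2418 in HE at 16 wkpp. Endothelial marker sums were 19255 to 23435 before calving, 29470 to 36586 in LE and 29705 to 63273 in HE at 1 wkpp, and 22204 to 25383 in LE and 23702 to 33998 in HE at 16 wkpp. Erythrocyte markers summed to 38 to 293 before calving, 16 to 49 in LE and 18 to 338 in HE at 1 wkpp, and 15 to 19 in LE and 21 to 84 in HE at 16 wkpp. Keratinocyte markers summed to 19 to 36 before calving, 2 to 6 over the LE libraries and 0 to 257 over the HE libraries, the highest being HE library c at 1 wkpp. Fewer cells of a type and less RNA per cell cannot be told apart in tissue RNA, and the part of cell makeup in the differences that follow was not tested.

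Each gene was measured by its exonic reads and by its reads over the whole gene, introns included. A normalised count is the read count of a gene divided by the size factor of its library, which corrects for depth; it is not corrected for gene length, so levels are compared between libraries and not between genes. All 38 genes passed the filter on low counts in all 6 comparisons. Differences were tested with limma over all genes passing the filter, and p-values were adjusted over all of them by the Benjamini-Hochberg method. A gene is said to rise or fall only under the rule of both analyses. Its adjusted p had to be below 0.01 in the exonic and the whole gene analysis, with the same sign. The study also kept genes past an adjusted p of 0.01 in both analyses. However, it tested with DESeq2 and states no condition on the sign, so the counts here are not those of the study. Errors of log2 values are standard errors (SE) with n = 3 per group. *ECHS1* had no whole gene read in any library although 24272 exonic reads were counted, and *ACOX3* had 10714 exonic but 3225 whole gene reads. For these 2 genes the whole gene analysis therefore has no value or a partial one. *ECHS1* could thus not pass in both analyses, nor lie apart in both, but it is counted among the 38.

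In LE cows, 2 genes of the list were higher after calving in exonic reads with an adjusted p below 0.01. *CPT1A*, the gate of the carnitine shuttle, was 3.9-fold and *PHYH*, which begins the breakdown of branched phytanic acid, was 3.46-fold higher in exonic reads at 1 wkpp than before calving. On the other side *ECHS1*, the enoyl-CoA hydratase of short chains, was 2.42-fold lower. These 3 genes passed the exonic analysis (adjusted p = 0.0035, 0.0035 and 0.0068). In the whole gene analysis *CPT1A* and *PHYH* did not pass (adjusted p = 0.057 and 0.018), and *ECHS1* had no value. Under the rule of both analyses limma called 0 of the 38 genes and 0 of 10718 genes tested (0.0%). The study, with DESeq2, lists *PHYH* as higher at 1 wkpp than before calving in SNEB cows. At an unadjusted p below 0.05 in both analyses limma gave 10 of 38 and 1070 of 10718. In exonic reads alone, 2 of 38 genes were higher and 1 lower at 1 wkpp, against 0.0746% and 0.485% of all genes. Libraries did not overlap in both analyses for 4 genes that were higher at 1 wkpp (*CPT1A*, *ACADVL*, *ACAA1* and *PHYH*) and for 6 that were lower (*ACADSB*, *DECR1*, *ETFA*, *ABCD2*, *EHHADH* and *HACL1*). Over all genes the shares were 5.26% and 6.15%. The median change of the 38 genes was -0.15 on the log2 scale in exonic reads, against 0.03 for all genes. Over the whole gene the median was 0.015, against 0.041 for all genes, so the sign of the median was not kept.

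Cell type markers also differed in the LE comparison. All 6 macrophage markers were higher by sign at 1 wkpp, with an exonic median of 0.62, and *CD163* passed in exonic reads at 1.41 ± 0.17 (adjusted p = 0.0063) but not over the whole gene (adjusted p = 0.027). All 5 endothelial markers were higher by sign, with a median of 0.62, and none passed. Of the 8 adipocyte markers 4 were higher and 4 lower by sign in exonic reads, with a median of 0.26, and none passed. *LPL*, the lipoprotein lipase, had 24244.0, 12653.0 and 24514.5 before calving and 6182.4, 1178.4 and 1299.2 in LE at 1 wkpp, a difference of -3.22 ± 0.62 (adjusted p = 0.038). *FABP4*, the fatty acid binding protein of adipocytes, was 1.13 higher (adjusted p = 0.028). The part of these markers in the values of *CPT1A*, *PHYH* and *ECHS1* was not tested.

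The exonic count in LE depended on single libraries. It was 0 without before calving library a or c or LE library b or c, 2 without before calving library b and 9 without LE library a at 1 wkpp. Over all genes the counts were 0, 0, 0 and 5 where the list had 0, then 45 where it had 2 and 355 where it had 9, so the zeros are not particular to the list. The 9 were *CPT1A* and *PHYH*, higher at 1 wkpp, and *ACADSB*, *HADH*, *ECHS1*, *DECR1*, *ETFA*, *ABCD2* and *EHHADH*, lower.

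In HE cows, *ACAD9* rose from before calving to 1 wkpp, by 2.01 ± 0.27 on the log2 scale in exonic reads (adjusted p = 0.00061) and by 1.62 ± 0.21 over the whole gene (adjusted p = 0.0054). *ACAD9* is an acyl-CoA dehydrogenase best known for its part in the assembly of respiratory complex I. It was the only gene of the list that passed in both analyses, 1 of 38 against 3.13% of the 10554 genes tested. In exonic reads alone 10 of 38 genes were lower at 1 wkpp and 2 higher, against 7.22% and 9.3% of all genes. The 10 lower genes were *ACADSB*, *HADH*, *HADHB*, *ECHS1*, *ACAA2*, *DECR1*, *ETFA*, *ABCD2*, *EHHADH* and *HSD17B4*, with folds from 2.06 (*HSD17B4*) to 10.1 (*EHHADH*). The 2 higher ones were *ACAD9* and *ACOX3*. The libraries did not overlap in both analyses for 14 genes that were lower at 1 wkpp and for 3 that were higher, against 15.0% and 15.8% of all genes. The median change of the list was -0.51 in exonic reads, against -0.05 for all genes, and -0.35 over the whole gene, against -0.06. The call of *ACAD9* held without HE library a (whole gene adjusted p = 0.0089) and was lost without any of the other 5 libraries. Without these, whole gene adjusted p-values were between 0.013 and 0.036 and log2 changes between 1.76 and 2.18 in exonic reads. The call was also lost with no filter on low counts. Of the 8 adipocyte markers 7 were lower and 1 higher by sign in exonic reads, with a median of -0.86. *LPL*, *LEP* and *CIDEC* fell, by 4.72, 3.83 and 2.36 on the log2 scale in exonic reads, and all 3 passed in both analyses (exonic adjusted p = 4.3e-05, 0.00015 and 0.00011). *PLIN1*, *FABP4*, *CD36* and *PPARG* did not pass, and *LIPE*, the hormone-sensitive lipase, was 0.93 higher without passing (adjusted p = 0.02). The 5 endothelial markers were all higher by sign, with a median of 0.68, and *VWF*, the von Willebrand factor, passed in exonic reads at 1.38 ± 0.29 (adjusted p = 0.0058). Of the 6 macrophage markers 5 were lower by sign, with a median of -0.53, and none passed. *TNNT3* was 3.59 ± 0.63 higher in exonic reads (adjusted p = 0.0023), with a whole gene adjusted p of 0.075. The part of these markers in the differences of the list was not tested.

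**Figure D2:**
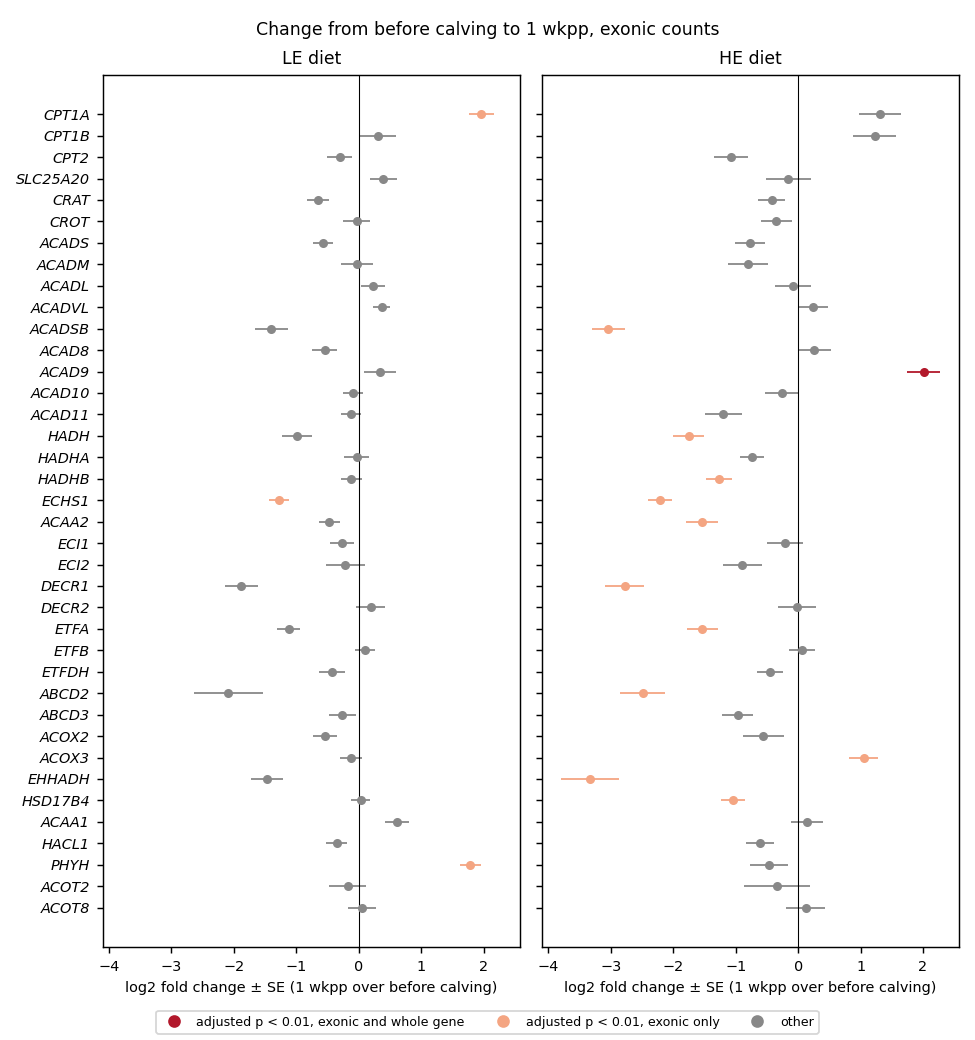
Points are log2 fold changes of exonic counts from before calving to 1 wkpp with SE bars for 38 genes, LE on the left and HE on the right; red marks adjusted p below 0.01 in both analyses, orange in exonic reads alone. *CPT1A* lies right of 0 at 1.96 (LE) and 1.31 (HE), *PHYH* at 1.79 (LE) and -0.47 (HE), and the 5 genes of the mitochondrial hydratase, dehydrogenase and thiolase steps lie left of 0 in both. Both panels use the same 3 libraries from before calving.

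From 1 to 16 wkpp no gene of the list passed in either diet with limma. The study, with DESeq2, lists *PHYH* as differing between these times in SNEB cows. In LE, limma called 0 of 38 and 0 of 10670 genes (0.0%), with 2 of 38 and 495 of 10670 at an unadjusted p below 0.05 in both analyses. Those 2 were *PHYH*, which was 1.39 ± 0.18 lower at 16 wkpp on the log2 scale (adjusted p = 0.2), and *CPT1B*, 0.75 ± 0.31 lower (adjusted p = 0.68). Libraries did not overlap in both analyses for 3 genes lower at 16 wkpp (*CPT1B*, *ACADVL* and *PHYH*) and for *SLC25A20*, the carnitine-acylcarnitine translocase, which was higher. All genes gave 4.9% and 2.07%. In HE, limma called 0 of 38 and 0 of 9927 genes (0.0%), with 0 of 38 and 848 of 9927 at an unadjusted p below 0.05. *ACADVL* and *DECR2* lay lower and *HSD17B4* higher at 16 wkpp with no overlap, against 4.82% and 7.08% of all genes. The median exonic change was 0.01 in LE and 0.08 in HE, against 0.01 and 0.00 for all genes, and over the whole gene it was -0.02 in LE and -0.03 in HE, so the sign was not kept in either diet. The test of whether the change from 1 to 16 wkpp differed between the diets also called 0 of 38 and 0 of 10809 genes (0.0%), with 0 and 319 at an unadjusted p below 0.05. The fit of all 15 libraries, the fit with sample quality weights and limma-trend each called 0 of 38 in both diets as well.

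Between the diets at 1 wkpp, *PHYH* was 4.79-fold and *HSD17B4*, the bifunctional enzyme of peroxisomes, 2.11-fold higher in LE than in HE in exonic reads, and *ACAD9* was 3.17-fold lower. These 3 genes passed in exonic reads (adjusted p = 0.0079, 0.0099 and 0.0082), with whole gene adjusted p-values of 0.031, 0.046 and 0.039. Thus limma called 0 of 38 and 0 of 10419 genes (0.0%) under the rule of both analyses, and 9 of 38 and 2115 of 10419 at an unadjusted p below 0.05. In exonic reads alone 2 of 38 were higher and 1 lower in LE, against 0.758% and 1.66% of all genes. Libraries did not overlap in both analyses for 10 genes that were higher in LE and for *CPT1B* and *ACAD9*, which were lower, against 12.8% and 13.0% of all genes. The 10 were *CPT2*, *ACADSB*, *HADH*, *HADHA*, *HADHB*, *ACAA2*, *ABCD3*, *HSD17B4*, *ACAA1* and *PHYH*. The exonic count was 5 without HE library a, where 548 genes passed over all, and 0 without any of the other 5 libraries, where at most 2 genes passed over all, so these zeros are not particular to the list. Cell type markers differed along with the list. All 8 adipocyte markers were higher in LE by sign, with an exonic median of 1.48, and *PLIN1*, *CIDEC* and *LEP* passed in exonic reads (adjusted p = 0.0099, 0.0075 and 0.0097). All 6 macrophage markers were higher in LE by sign, with a median of 0.96, and none passed. *TNNT3* was 3.24 ± 0.51 lower in LE in exonic reads (adjusted p = 0.0096). No marker passed in both analyses, and the part of the markers in the differences of the list was not tested.

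At 16 wkpp *ACAD9* was lower in LE than in HE, with a log2 difference of -1.34 ± 0.18 in exonic reads (adjusted p = 0.0014) and -1.14 ± 0.21 over the whole gene (adjusted p = 0.0089). It was again the only gene that passed in both analyses, 1 of 38 against 5.09% of the 10407 genes tested. The call was lost without any 1 of the 6 libraries, with whole gene adjusted p-values of 0.013 to 0.032 and exonic differences of -1.47 to -1.21. With no filter on low counts and with limma-trend it was lost as well. In exonic reads alone *PHYH* and *CPT2* were also past the threshold, 2.67-fold and 2.07-fold higher in LE (adjusted p = 0.0085 and 0.0069). That is 2 of 38 higher and 1 lower, against 3.4% and 6.88% of all genes. Without any library other than HE library b, the exonic count fell from 3 to 1, which was *ACAD9*. Without HE library b it was 3, namely *ACAD9*, *ACOX3* and *PHYH*. Libraries did not overlap in both analyses for 14 genes that were higher and 3 that were lower in LE, against 14.9% and 15.5% of all genes. The 3 were *CPT1B*, *ACAD8* and *ACAD9*. The median LE over HE difference of the list was 0.41 at 1 wkpp and 0.42 at 16 wkpp in exonic reads, against 0.08 and 0.03 for all genes, and 0.27 and 0.39 over the whole gene, against 0.12 and 0.04. Of the 8 adipocyte markers 7 were higher in LE by sign, with an exonic median of 0.97, and *CIDEC* passed in exonic reads (adjusted p = 0.0095). All 6 macrophage markers were higher in LE, with a median of 2.54. Of these *CD163* and *CSF1R* were 3.30 and 1.97 higher in LE on the log2 scale and passed in both analyses (exonic adjusted p = 0.00027 and 0.00072). *TNNT3* was 3.28 lower in LE (exonic adjusted p = 0.00053), also in both analyses. The part of these markers in the differences of the list was not tested.

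**Figure D3:**
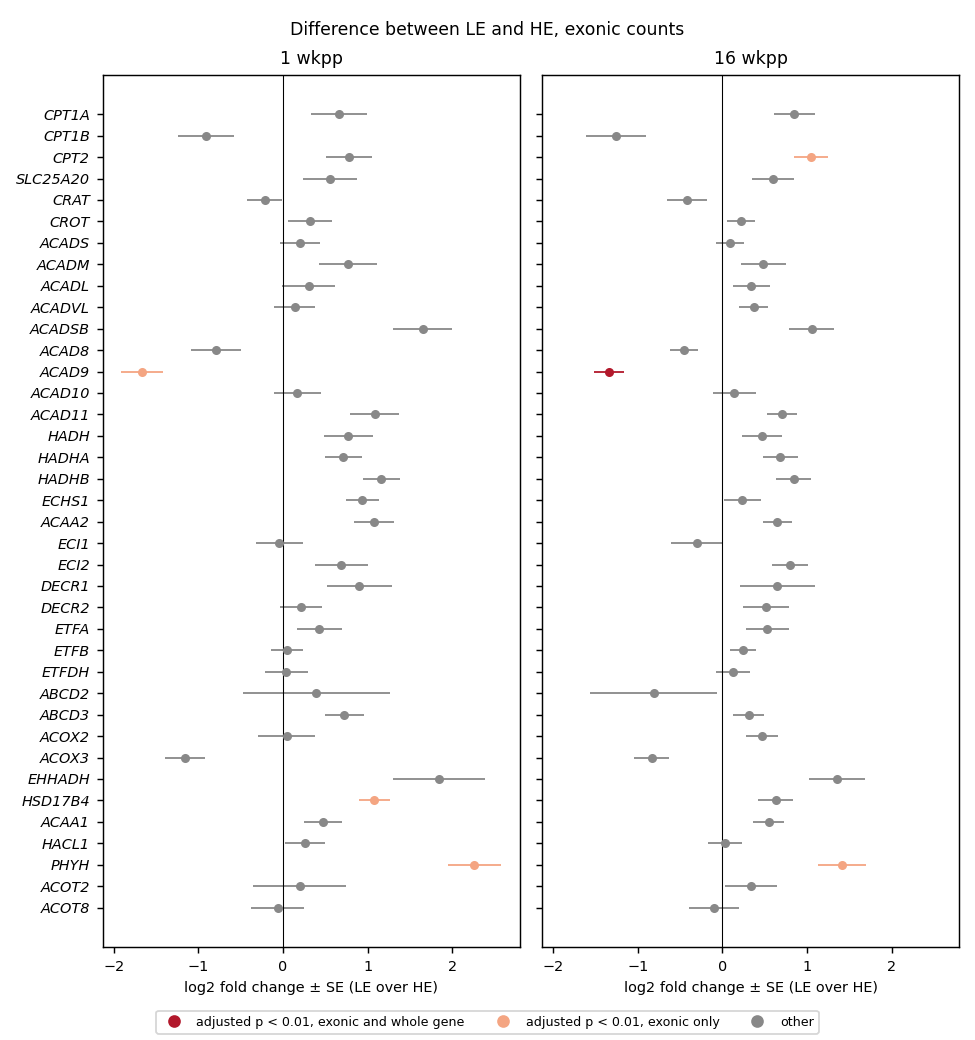
Points are log2 differences of exonic counts, LE over HE, with SE bars for 38 genes at 1 wkpp (left) and 16 wkpp (right); red marks adjusted p below 0.01 in both analyses, orange in exonic reads alone. At 1 wkpp 31 of the 38 genes lie right of 0 and at 16 wkpp 30 do, with *PHYH* furthest right (2.26 and 1.42) and *ACAD9* furthest left (-1.67 and -1.34).

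The genes are now taken by role. Values in every library are given for *CPT1A*, *HSD17B4* and *HADHA*, which had the highest median counts, for *ACAD9*, and for the other genes that passed in exonic reads in some comparison, which were chosen after their values were seen. These are 16 genes. The 23 genes that passed in no comparison, *HADHA* among them, had exonic changes of -0.65 to 0.61 from before calving to 1 wkpp in LE (lowest adjusted p = 0.13) and of -1.20 to 1.22 in HE (lowest adjusted p = 0.012). Their LE over HE differences were -0.91 to 1.08 at 1 wkpp and -1.26 to 0.80 at 16 wkpp (lowest adjusted p = 0.037 and 0.02).

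**Figure D4:**
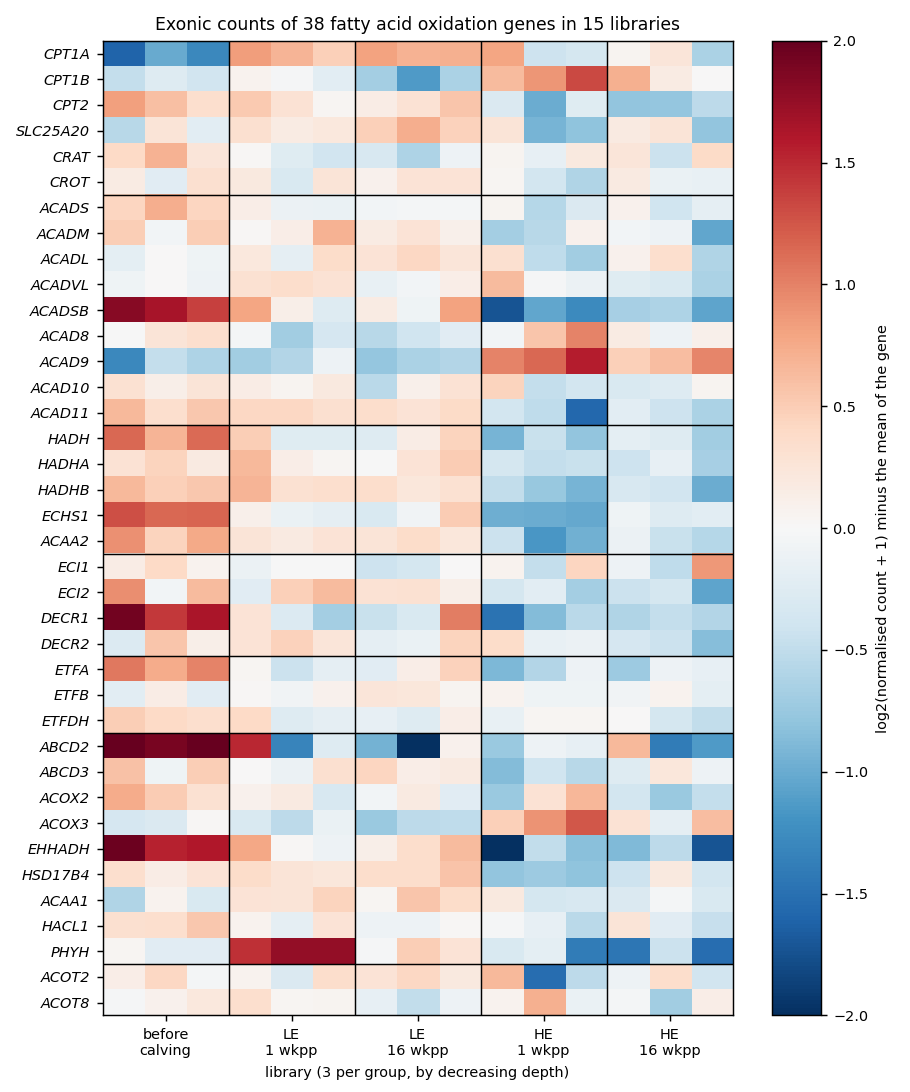
Rows are 38 genes in 7 roles, split by black lines, and columns are 15 libraries in 5 groups of 3; colour is log2(normalised exonic count + 1) minus the mean of the gene, red above and blue below. *ECHS1*, *ACADSB*, *DECR1*, *ABCD2* and *EHHADH* are reddest before calving, *PHYH* in LE at 1 wkpp and *ACAD9* in the 6 HE libraries, and *CPT1A* is bluest before calving.

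Of the carnitine shuttle, 6 genes were measured. *CPT1A* had normalised exonic counts of 505, 768 and 628 before calving, 2739, 2481 and 2140 in LE at 1 wkpp, 2690, 2501 and 2530 in LE at 16 wkpp, 2668, 1151 and 1210 in HE at 1 wkpp, and 1607, 1828 and 991 in HE at 16 wkpp. Every library from after calving lay above the 3 from before, and in HE at 1 wkpp library a lay with LE while b and c lay lower. That library had the highest sum of the HE group at 1 wkpp for adipocyte (90661 against 33772 and 23059), endothelial (63273 against 29705 and 44706) and macrophage markers (8100 against 2164 and 4710). It also had the most exonic reads on genes, 6993576 against 2590951 and 2028309, and the lowest spike-in share, 15.1% against 20.9% and 29.7%. Its skeletal muscle sum was the lowest of the group (1191 against 1745 and 4165). So were its erythrocyte (18 against 43 and 338) and keratinocyte sums (6 against 49 and 257). Of the adipocyte markers, *CIDEC* (1167.9 against 1642.8 and 1463.2) and *LEP* (57.4 against 118.9 and 176.5) were lowest in it. The part of these differences in its *CPT1A* value was not tested. The change of *CPT1A* to 1 wkpp was 1.96 ± 0.19 in LE and 1.31 ± 0.33 in HE (adjusted p = 0.0035 and 0.014). Over the whole gene it was 1.89 (adjusted p = 0.057) and 1.20 (adjusted p = 0.12). *CPT2*, the inner membrane transferase that returns acyl groups to coenzyme A, had 556, 473 and 397 before calving, 452, 384 and 323 in LE and 255, 157 and 265 in HE at 1 wkpp, then 346, 381 and 459 in LE and 180, 183 and 217 in HE at 16 wkpp. All 6 HE libraries lay below the other 9. *CPT1B*, the muscle form of the gate enzyme, ran the other way at low counts, with 29 to 34 before calving, 18 to 43 in LE and 41 to 103 in HE, and its difference between diets did not pass (adjusted p = 0.093 at 1 wkpp and 0.032 at 16 wkpp). *SLC25A20*, *CRAT* and *CROT*, the carnitine acyltransferases of short and medium chains among them, differed by at most 0.65 in either direction in the comparisons of before calving with 1 wkpp, and none passed.

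Among the 9 acyl-CoA dehydrogenases, *ACADSB* and *ACAD9* lay in opposite directions. *ACADSB*, which acts on short branched chains and in isoleucine breakdown, had 1790, 1594 and 1314 before calving, 877, 548 and 423 in LE and 152, 246 and 210 in HE at 1 wkpp, and 569, 479 and 887 in LE and 319, 332 and 244 in HE at 16 wkpp. The 3 groups up to 1 wkpp did not overlap. Its change to 1 wkpp was -1.40 ± 0.27 in LE (adjusted p = 0.038) and -3.04 ± 0.27 in HE (adjusted p = 0.00011), and over the whole gene it was smaller, -0.83 (adjusted p = 0.14) and -1.34 (adjusted p = 0.01). *ACAD9* had 157, 274 and 249 before calving, 237, 254 and 357 in LE at 1 wkpp, 223, 246 and 254 in LE at 16 wkpp, 761, 848 and 1136 in HE at 1 wkpp and 535, 591 and 753 in HE at 16 wkpp. The lowest HE library, at 535, was above the highest of the other 9, at 357. The dehydrogenases of the chain length series, *ACADS*, *ACADM*, *ACADL* and *ACADVL* for short, medium, long and very long chains, did not pass. Their exonic changes to 1 wkpp were -0.57, -0.03, 0.22 and 0.37 in LE and -0.77, -0.80, -0.08 and 0.24 in HE, with adjusted p-values in HE of 0.033, 0.085, 0.86 and 0.48. *ACAD11* was 1.20 ± 0.30 lower in HE at 1 wkpp than before calving (adjusted p = 0.012), with a whole gene change of -0.35, and *ACAD8* and *ACAD10* did not pass in any comparison.

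The hydratase, dehydrogenase and thiolase steps in mitochondria are covered by 5 genes, and in exonic reads all 5 were lower by sign at 1 wkpp than before calving in either diet. In LE the exonic differences of *HADHA* and *HADHB* were -0.03 and -0.12, and over the whole gene they were 0.06 and 0.03. The whole gene differences of *HADH* and *ACAA2* were -0.62 and -0.12 in LE, and in HE those of all 4 genes with whole gene reads were below 0. Their summed counts were 9834, 8763 and 9112 before calving, 7886, 6141 and 6094 in LE and 3899, 3364 and 3312 in HE at 1 wkpp, 5946, 6592 and 7501 in LE and 4775, 4614 and 3704 in HE at 16 wkpp. *ECHS1* had 2578, 2350 and 2377 before calving, 1129, 958 and 936 in LE at 1 wkpp, 855, 1009 and 1502 in LE at 16 wkpp, 535, 530 and 518 in HE at 1 wkpp and 998, 879 and 915 in HE at 16 wkpp. No library from after calving reached the 3 from before. Its exonic change was -1.28 ± 0.15 in LE (adjusted p = 0.0068) and -2.21 ± 0.19 in HE (adjusted p = 0.00011), and it rests on the exonic reads alone. In HE the 3 libraries at 16 wkpp lay above the 3 at 1 wkpp, but the change of 0.82 ± 0.19 did not pass (adjusted p = 0.22). *HADH*, the dehydrogenase of medium and short chains, had 890, 646 and 881 before calving, 563, 339 and 339 in LE and 209, 295 and 232 in HE at 1 wkpp, and 337, 446 and 546 in LE and 352, 334 and 246 in HE at 16 wkpp. Its change was -0.99 ± 0.24 in LE (adjusted p = 0.09) and -1.75 ± 0.25 in HE (adjusted p = 0.00081).

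*HADHA* and *HADHB* encode the 2 subunits of the trifunctional protein of long chains and are neighbours in the RefSeq gene table of cattle. *HADHA* had 2159, 2407 and 2004 before calving, 2773, 1944 and 1806 in LE and 1384, 1270 and 1298 in HE at 1 wkpp, and 1752, 2136 and 2519 in LE and 1321, 1568 and 1113 in HE at 16 wkpp. *HADHB* had 1926, 1724 and 1799 before calving, 1971, 1529 and 1556 in LE and 876, 732 and 647 in HE at 1 wkpp, and 1567, 1442 and 1523 in LE and 991, 943 and 617 in HE at 16 wkpp. For both subunits all 6 HE libraries lay below the other 9, and before calving and LE at 1 wkpp overlapped. At 16 wkpp LE still overlapped before calving for *HADHA*, while for *HADHB* all 3 LE libraries lay below the 3 from before calving. The LE over HE difference at 1 wkpp was 0.71 ± 0.22 for *HADHA* (adjusted p = 0.057) and 1.16 ± 0.22 for *HADHB* (adjusted p = 0.013). The ratio of the *HADHA* to the *HADHB* count was 1.11 to 1.4 before calving, 1.12 to 1.65 over the LE libraries and 1.33 to 2.01 over the HE libraries, so the 2 subunits did not keep 1 ratio. *ACAA2*, the mitochondrial thiolase, had 2280, 1635 and 2050 before calving, 1450, 1370 and 1457 in LE and 896, 538 and 618 in HE at 1 wkpp, and 1436, 1558 and 1412 in LE and 1113, 889 and 812 in HE at 16 wkpp. Its change to 1 wkpp was -0.47 ± 0.17 in LE (adjusted p = 0.25) and -1.54 ± 0.25 in HE (adjusted p = 0.0017).

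**Figure D5:**
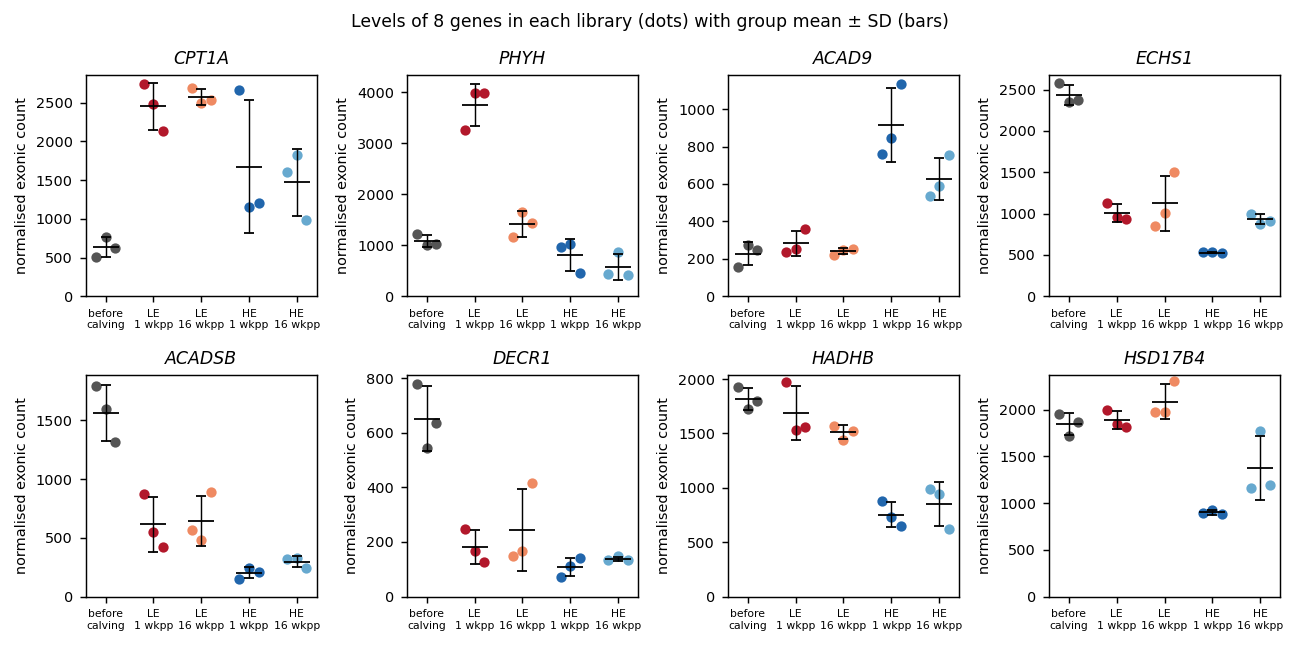
Dots are normalised exonic counts of 8 genes in each of 15 libraries, with bars for the group mean ± SD (n = 3); each vertical axis starts at 0. *CPT1A* is above the before calving libraries in all later groups, *PHYH* peaks in LE at 1 wkpp, *ACAD9* is higher in all HE libraries than in the others, *ECHS1*, *ACADSB* and *DECR1* are highest before calving, and *HADHB* and *HSD17B4* are lowest in HE at 1 wkpp by group mean.

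Unsaturated fatty acids need auxiliary enzymes to move or reduce their double bonds. *DECR1*, the mitochondrial dienoyl-CoA reductase, had 777, 543 and 636 before calving, 248, 168 and 127 in LE and 73, 111 and 140 in HE at 1 wkpp, and 149, 166 and 417 in LE and 134, 147 and 135 in HE at 16 wkpp. The libraries from before calving were above all others, and LE library c at 16 wkpp lay apart from its group. The change to 1 wkpp was -1.88 ± 0.26 in LE (adjusted p = 0.011) and -2.78 ± 0.31 in HE (adjusted p = 0.0003), against -1.31 and -1.39 over the whole gene (adjusted p = 0.061 and 0.019). *ECI1*, *ECI2* and the peroxisomal *DECR2* differed by -0.27, -0.21 and 0.19 in LE and by -0.21, -0.89 and -0.02 in HE, and none passed.

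Electron transfer rests on *ETFA*, *ETFB* and *ETFDH*, the flavoprotein subunits and their dehydrogenase. *ETFA* had 766, 617 and 730 before calving, 378, 272 and 325 in LE and 198, 246 and 342 in HE at 1 wkpp, and 313, 405 and 508 in LE and 221, 344 and 328 in HE at 16 wkpp. Every later library lay below the 3 from before calving. Its change was -1.12 ± 0.18 in LE (adjusted p = 0.021) and -1.54 ± 0.25 in HE (adjusted p = 0.0015). The partner subunit *ETFB* stayed between 561 and 774 in all 15 libraries, with differences of 0.11 in LE and 0.06 in HE, and *ETFDH* differed by -0.43 in LE and -0.45 in HE without passing (adjusted p = 0.39 and 0.12).

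There were 9 peroxisomal genes. *PHYH* had counts of 1218, 1010 and 1014 before calving, 3265, 3977 and 3978 in LE at 1 wkpp, 1160, 1655 and 1428 in LE at 16 wkpp, 955, 1032 and 449 in HE at 1 wkpp, and 432, 874 and 412 in HE at 16 wkpp. The LE libraries at 1 wkpp, from 3265 up, were above all others, which reached 1655, and LE lay above HE at both times. The whole gene changes matched the exonic ones in size, 1.75 ± 0.19 against 1.79 ± 0.17 from before calving to 1 wkpp in LE. The test of whether *PHYH* changed differently between diets from 1 to 16 wkpp gave 0.83 ± 0.46 (adjusted p = 0.99). *HSD17B4* had 1957, 1720 and 1865 before calving, 1994, 1851 and 1811 in LE and 896, 929 and 879 in HE at 1 wkpp, and 1971, 1979 and 2301 in LE and 1157, 1766 and 1197 in HE at 16 wkpp. Before calving and LE at 1 wkpp overlapped, and the 3 HE libraries at 1 wkpp lay together below them. The change to 1 wkpp was 0.03 ± 0.15 in LE (adjusted p = 0.95) and -1.04 ± 0.19 in HE (adjusted p = 0.0027).

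*EHHADH*, the other bifunctional enzyme of peroxisomes, had 462, 346 and 361 before calving, 203, 121 and 110 in LE and 21, 84 and 66 in HE at 1 wkpp, and 128, 152 and 184 in LE and 64, 82 and 35 in HE at 16 wkpp. Its change was -1.47 ± 0.26 in LE (adjusted p = 0.028) and -3.34 ± 0.46 in HE (adjusted p = 0.00076), and over the whole gene -1.25 and -1.76. The lowest HE values rest on as few as 13 exonic reads in a library. *ABCD2*, a transporter of very long chains into peroxisomes, had 215, 186 and 218 before calving, 142, 19 and 41 in LE and 29, 46 and 44 in HE at 1 wkpp, and 25, 9 and 52 in LE and 78, 18 and 22 in HE at 16 wkpp. LE library a at 1 wkpp stood nearer to the libraries from before calving than to its own group. The change of *ABCD2* was -2.09 ± 0.55 in LE (adjusted p = 0.1) and -2.49 ± 0.36 in HE (adjusted p = 0.00094). Its relative *ABCD3* was 0.97 ± 0.25 lower in HE at 1 wkpp than before calving (adjusted p = 0.015).

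*ACOX3*, an oxidase of branched chains, had 528, 546 and 674 before calving, 540, 461 and 604 in LE and 921, 1235 and 1574 in HE at 1 wkpp, and 396, 460 and 466 in LE and 809, 586 and 1024 in HE at 16 wkpp. In exonic reads HE lay above LE at both times without overlap, and the change from before calving to HE at 1 wkpp was 1.05 ± 0.23 (adjusted p = 0.0074). The direction was lost in the whole gene reads, where it was -0.04 ± 0.26 (adjusted p = 0.94), on fewer reads than the exons gave. *ACOX2*, *ACAA1* and *HACL1*, the latter of which follows *PHYH* in phytanic acid breakdown, did not pass in any comparison. The difference of *HACL1* from before calving to 1 wkpp was -0.35 ± 0.17 in LE and -0.61 ± 0.22 in HE, while that of *PHYH* was 1.79 and -0.47. The thioesterases *ACOT2* and *ACOT8*, which release the fatty acid from coenzyme A, stayed at 13.51 to 65.69 and 43.7 to 118.9 normalised counts over the 15 libraries, and neither passed. *ACOT2* has near identical relatives among the thioesterases, and *ACOT1* was not in the tables, so its reads are uncertain.

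The steps around oxidation gave these counts. Of the fatty acid activation and carnitine supply list, 11 of 12 genes had counts and 10 were tested. *ACSL1*, the main acyl-CoA synthetase of adipose tissue, fell from before calving to 1 wkpp in HE by 2.98 ± 0.29 (exonic adjusted p = 0.00015) and passed in both analyses, 1 of 10 genes against 3.13% of all genes. In LE its exonic change was -2.31 ± 0.24 (adjusted p = 0.0042) and the whole gene adjusted p was 0.018. At 16 wkpp it was 1.04 ± 0.20 higher in LE than in HE in exonic reads (adjusted p = 0.0066). *SLC27A1*, a fatty acid transport protein, was 1.83 ± 0.27 higher in HE at 1 wkpp than before calving in exonic reads (adjusted p = 0.00098). It was lower in LE than in HE by 1.55 at 1 wkpp and 1.42 at 16 wkpp (adjusted p = 0.0098 and 0.0012), and it did not pass over the whole gene. Of the regulators, 1 of 10 tested genes passed in both analyses, *UCP2*, a carrier of the inner membrane, which rose in HE by 1.99 ± 0.24 (exonic adjusted p = 0.00042), against 3.13% of all genes. *PDK4*, the kinase that closes pyruvate entry to the citrate cycle, was 2.96 ± 0.38 higher in LE at 1 wkpp in exonic reads (adjusted p = 0.0081), with a whole gene adjusted p of 0.033. In HE at 1 wkpp it was 1.97 ± 0.43 higher in exonic reads (adjusted p = 0.0068), with a whole gene adjusted p of 0.044. *PPARD*, a nuclear receptor for fatty acids, was 1.56 ± 0.23 higher in HE at 1 wkpp than before calving in exonic reads (adjusted p = 0.00091). It was also lower in LE than in HE, by 1.39 at 1 wkpp and 1.35 at 16 wkpp (adjusted p = 0.0099 and 0.00096), with whole gene adjusted p-values of 0.11 to 0.41 over these 3 comparisons. In the other comparisons no gene of these 2 lists passed in both analyses. Of the 14 genes of peroxisome assembly, 0 passed in any of the 6 comparisons, against 3.13% of all genes from before calving to HE, 5.09% between the diets at 16 wkpp and 0.0% in the other 4. In exonic reads 1 of 14 was higher and 1 lower in HE at 1 wkpp, against 9.3% and 7.22% of all genes, where *PEX6* was the higher and *PEX19* the lower (adjusted p = 0.00095 and 0.0031). At 16 wkpp *PEX6* was 1.18 ± 0.16 lower in LE than in HE in exonic reads (adjusted p = 0.0017).

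In exonic reads all 16 citrate cycle and all 23 respiratory chain genes with counts were lower by sign at 1 wkpp than before calving in both diets. Over the whole gene 16 and 23 were lower in HE, and 13 of 16 and 21 of 23 in LE. Of these genes 0 passed in both analyses in any comparison. Over all genes the shares were 3.13% from before calving to HE, 5.09% between the diets at 16 wkpp and 0.0% in the others. The median exonic changes were -0.37 and -0.44 in LE and -0.86 and -1.11 in HE, against 0.03 and -0.05 for all genes. In HE 4 of 16 and 11 of 23 passed in exonic reads, all lower, against 7.22% of all genes. Among them were, chosen after their values were seen, *CS*, the citrate synthase, at -1.69 ± 0.29 (adjusted p = 0.0021) and *NDUFA4* at -1.60 ± 0.22 (adjusted p = 0.00071). In LE 0 passed in exonic reads, against 0.485% of all genes that were lower. Between the diets at 1 wkpp all 23 respiratory chain genes were higher in LE by sign in both analyses. The exonic median was 0.66, against 0.08 for all genes, and 0 passed in exonic reads, against 0.758% of all genes. At 16 wkpp 19 of 23 were higher in exonic reads and 18 over the whole gene, with an exonic median of 0.31 against 0.03. Of the 16 citrate cycle genes 13 were higher in LE at 1 wkpp and 11 at 16 wkpp in exonic reads. Over the whole gene these were 16 and 10. Both comparisons with before calving share their 3 libraries, so their values are set side by side only.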

How the data were processed

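Adipose biopsies from 15 samples were sequenced as stranded total RNA. Per the study's methods and the submitters' processing notes, the authors made reads with bcl2fastq 2.15.0, trimmed them with cutadapt 1.3, mapped them with TopHat2 to bosTau8, counted them with HTSeq over exons and over whole genes, and compared groups with DESeq2. Each of the 6 deposited tables holds, for 6 libraries, the authors' mean normalised count and their fold changes, standard errors, statistics and p-values. Those comparison columns were not used; 0 columns belonged to other samples. The mean normalised counts were the other unit used here: since the authors deposited them with 15 significant digits and each library is in several tables, the whole-number count of every library could be solved for by lattice reduction (sympy 1.14.0, numpy 2.4.6). A gene was accepted at a relative residual under 1e-14, which recovered 99.942% of exonic and 99.94% of whole gene entries with a read; 4 genes, none of the list, were left out. As a check, 36 of 36 size factors of each analysis equalled, within 1e-10, a ratio of recovered counts or the mean of neighbouring ratios at most 6 ranks from the median, and the median of ratios over the recovered genes differed from them by at most 0.00072 of their value. The group of a library follows from the tables it enters; its cow and replicate number are not known.

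Counts were scaled by median-of-ratios size factors and tested with limma 3.58.1 (voom, two-sided) in R 4.3.3, on 3 against 3 libraries, for genes with at least 10 exonic reads in at least 3 libraries. Counts were simulated for the exonic analysis of before calving against HE at 1 wkpp over 10554 genes. At an adjusted p below 0.01 that analysis alone recovered 93% of genes changed by 2 on the log2 scale and 13% of those changed by 1. Changes of 2-fold were thus mostly missed. The rule of both analyses was not simulated. Within groups all 15 pairs of libraries differed by more than sampling noise (chi-square per degree of freedom of at least 16.5). Nothing says that libraries of a group were prepared apart, so p-values cover the spread between these samples. The list, the roles and the other lists were chosen with earlier results of these data known. Every gene of the list is accounted for; those called, the 3 with the highest counts and, as added after seeing the data, those past the threshold on exons are given in every library, and from the other lists at most 3 called genes and cell type markers. Genes of the other lists that are named for exonic reads alone were chosen after their values were seen. As added after seeing the data, the count of genes past the threshold on exons was recomputed under each alternative. Alternatives were total count scaling, no filter, either analysis alone, a threshold of 0.05, 1 fit of all 15 libraries, limma-trend on log2(normalised count + 1), quality weights and leaving out each library. Promoter motifs were not analysed here.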

Additional observations from a re-analysis of the deposited data

Results flagged for a closer look

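The spike-in share of exonic reads was above that of the libraries from before calving in both HE groups, which lies outside the gene measurement. The median of 3 libraries was 20.9% in HE at 1 wkpp and 13.9% in HE at 16 wkpp, against at most 2.62% before calving and at most 2.23% in LE. Its part in the differences between LE and HE was not tested, and the diet and the libraries cannot be told apart. Groups of 3 are too small for a test of outlying samples, and no gene of the list passed the test of a different change between the diets.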

How the results depend on the processing

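From before calving to 1 wkpp the number of the 38 genes past the threshold in both analyses was 1 in HE and 0 in LE. In HE it was 0 with no filter, 12 on exons alone, 8 at an adjusted p below 0.05, 8 with all 15 libraries in 1 fit, 11 with sample quality weights, and 0 to 2 when each library was left out. In LE these settings gave 3 on exons alone, 1 at 0.05, 1 with all 15 libraries, 6 with quality weights, and 0 to 1 when each library was left out. Over all genes, exons alone gave 1743 and 0.05 gave 1303 of 10554 in HE, where 330 passed as reported. In LE they gave 60 and 64 of 10718, where 0 passed as reported. Between LE and HE at 1 wkpp the number was 0, and it was 3 on exons alone, 3 at 0.05, 3 with all 15 libraries, 5 with quality weights and 0 to 1 without each library. At 16 wkpp it was 1, and it was 0 with no filter, 3 on exons alone, 8 at 0.05, 0 with limma-trend and 0 to 1 without each library. Over all genes, exons alone gave 252 and 0.05 gave 339 of 10419 at 1 wkpp, where 0 passed as reported. At 16 wkpp they gave 1070 and 1492 of 10407, where 530 passed as reported. Numbers over all genes under the other settings of both analyses are not given here, so those counts are not read as particular to the list. The comparisons of 1 with 16 wkpp and of the diets in that change gave 0 under every alternative run. The number past the threshold on exons from before calving to 1 wkpp in LE was 3, and it was 7 with all 15 libraries, 9 with quality weights and 0 to 9 without each library. Over all genes these numbers were 60, 122, 415 and 0 to 355. In LE against HE the number of the list was 3 at 1 wkpp, 9 with all 15 libraries, 8 with quality weights and 0 to 5 without each library. Over all genes these were 252, 1400, 1139 and 0 to 548. At 16 wkpp the number of the list was 1 to 3 without each library, where 424 to 707 passed over all genes. Of 292 alternative values for 21 results of single genes, 291 kept their direction; *ACOX3* from before calving to HE at 1 wkpp, as log2 of before calving over HE, was -1.05 in exonic and 0.04 in whole gene reads. The cause was not tested. A setting that keeps 1 analysis or a wider threshold has a weaker criterion by construction. The depth of the HE libraries limits the lowest counts, down to 5 reads for *ACOT2*. No paired analysis was possible because the cow and replicate number of a library are not known.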

Other observations

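Exonic and whole gene reads gave different sizes of change for many genes of the list. From before calving to HE at 1 wkpp the exonic change was the larger in 29 of the 37 genes with whole gene reads, and between LE and HE it was the larger in 26 of 37 at 1 wkpp and again at 16 wkpp. From 1 to 16 wkpp in LE it was the larger in 13 of 37. The widest gaps were at *ACADSB*, with -3.04 in exons and -1.34 over the whole gene, *EHHADH*, with -3.34 and -1.76, and *DECR1*, with -2.78 and -1.39, all in HE at 1 wkpp against before calving. Whole gene reads include introns, and the share of exonic reads among whole gene reads of all genes ran from 40.7% to 60.3% over the libraries. What lies behind the gap was not tested.

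*CIDEA*, a lipid droplet protein often used as a brown adipocyte marker, was 797.8 to 1640.5 before calving and 102.7 to 344.5 in every later library, while *UCP1* was at most 2.7 in all 15. The fall to 1 wkpp in HE was 2.79 ± 0.39 on the log2 scale and passed in both analyses (limma, exonic adjusted p = 0.00078). In LE the exonic change was -3.26 ± 0.32 (adjusted p = 0.0035), with a whole gene adjusted p of 0.015.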
